A study of Mus musculus with 2 samples.

Results

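Neurotransmitter receptor subunits are the proteins through which nerve, muscle and gland cells sense acetylcholine, GABA, glycine, glutamate, serotonin, dopamine, noradrenaline, ATP and tachykinins. Their genes were followed here in teratomas, the tumours of mixed, differentiated tissues that grow from transplanted pluripotent stem cells. The receptor genes were chosen by name, with earlier results of these arrays known. Each has a probe set that names a single symbol. The current symbol belongs to the GABA, glutamate, glycine, acetylcholine, serotonin, dopamine, adrenergic, P2X or tachykinin receptor families. This gave 75 genes of 12394, in 15 families.

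The study compared 2 pools of RNA on Affymetrix mouse arrays. The EiPS pool came from 2 regressing teratomas of EiPS cells. These are induced pluripotent stem (iPS) cells, and the labels also name the line 1E12. The B6 ES pool came from 2 teratomas formed by embryonic stem cells of the C57BL/6 (B6) strain. In both groups cells had been transplanted under the skin of male B6 mice and tumours were removed at week 6. The B6 ES cells share the strain of their host. In both pools, RNA of tumour cells and of host cells cannot be told apart on the arrays. With 1 array per group, the differences below have no replicate check, and no test could be made: the values compare these 2 pools. In such bulk tissue, fewer cells of a type and less RNA per cell cannot be told apart either.

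Fast receptors for these transmitters are ion channels built of several subunits around a pore, and the choice of subunit sets where the channel sits, how long it stays open and which ions pass. Slower receptors signal through G proteins and come as single proteins or pairs. Neurons carry most of these genes, but skeletal muscle carries its own acetylcholine receptor, and smooth muscle, epithelia, fat and immune cells carry some of the adrenergic, P2X and tachykinin receptors. The muscle acetylcholine receptor is textbook material for tissue-restricted transcription: its subunit genes are activated by myogenic factors that bind E-boxes, with the letters CANNTG, and in nuclei under the synapse by Ets factors that bind the N-box, CCGGAA.

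All 5 subunit genes of that muscle receptor were in the set and all had a lower signal in the EiPS pool, so the start of their genes is shown. The 250 bases before the start of 4 of them follow, from RefSeq's GRCm38.p6, each written in the direction of the gene; capitals mark CANNTG and CCGGAA on either strand. They are Chrna1 at chr2:73580339-73580588 (minus strand), Chrnb1 at chr11:69795938-69796187 (minus strand), Chrng at chr1:87205561-87205810 (plus strand) and Chrne at chr11:70619195-70619444 (minus strand). The fifth gene is Chrnd.
Chrna1: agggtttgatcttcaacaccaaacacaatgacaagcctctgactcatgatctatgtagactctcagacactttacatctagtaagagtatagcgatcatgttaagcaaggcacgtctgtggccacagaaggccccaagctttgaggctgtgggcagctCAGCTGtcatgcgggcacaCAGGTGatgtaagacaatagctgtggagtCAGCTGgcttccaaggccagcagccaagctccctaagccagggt
Chrnb1: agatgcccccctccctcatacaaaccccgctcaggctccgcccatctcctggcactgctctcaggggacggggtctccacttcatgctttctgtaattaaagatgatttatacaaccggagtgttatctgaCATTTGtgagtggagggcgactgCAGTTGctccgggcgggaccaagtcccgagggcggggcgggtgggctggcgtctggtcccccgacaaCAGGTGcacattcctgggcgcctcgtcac
Chrng: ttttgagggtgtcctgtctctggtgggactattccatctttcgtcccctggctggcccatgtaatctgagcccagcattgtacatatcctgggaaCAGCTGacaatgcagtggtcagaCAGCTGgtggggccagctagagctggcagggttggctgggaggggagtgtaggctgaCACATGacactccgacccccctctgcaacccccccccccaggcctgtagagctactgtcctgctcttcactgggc
Chrne: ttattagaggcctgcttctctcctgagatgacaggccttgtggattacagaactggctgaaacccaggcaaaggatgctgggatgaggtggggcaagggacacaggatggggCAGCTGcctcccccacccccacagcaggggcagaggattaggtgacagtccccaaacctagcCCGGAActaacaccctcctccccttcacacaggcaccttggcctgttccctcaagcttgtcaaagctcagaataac

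The windows of Chrna1, Chrnb1 and Chrng each held 3 matches to CANNTG and that of Chrne held 1. CAGCTG, 1 form of CANNTG, was found 2 times in Chrna1, 2 times in Chrng and 1 time in Chrne, and not in Chrnb1. CAGGTG, another form, was found 1 time each in Chrna1 and Chrnb1. CCGGAA was found in Chrne alone of these 4 windows. Of 32851 mouse promoter windows of the same length, 66.2% held CANNTG, 13.0% held CAGCTG, 17.2% held CAGGTG and 12.03% held CCGGAA, both strands searched. These are matches of letters in a window, not measured binding sites.

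Signals were taken from the brightest probe set of each gene, as deposited, on the linear MAS5 scale. The median signal over all probe sets was 196 in the EiPS pool and 179 in the B6 ES pool. A floor of 25.8 separated usable signals from background; it is the 90th percentile of 71 probe sets for odorant, vomeronasal, taste and trace amine receptors. Of the 75 receptor genes, 34 were above it on both arrays, 6 in the EiPS pool only and 4 in the B6 ES pool only, and 31 were under it on both arrays and were not compared. Where only 1 array was under the floor, the floor took the place of that signal. Such differences are bounds, written "at least", and their direction is fixed by construction. Probe sets of 1 gene differed among themselves in their log2 difference with an SD of 0.40 over 3807 genes, and 0.48 where both signals were under 100. It is the nearest gauge of measurement noise and leaves out the variation between tumours and arrays. Of 44 compared receptor genes, 19 differed by less than that 0.40.

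The tissue marker lists were chosen with earlier results of these data known, so they describe the 2 pools and are no independent check. All 12 neuronal markers and all 12 skeletal muscle markers listed were above the floor on both arrays. So were 9 of 9 measured genes of astrocytes and oligodendrocytes and 8 of 9 smooth muscle genes. Every neuronal marker was lower in the EiPS pool. Their median log2 difference was -0.93 and their summed signal was 12442 in the EiPS pool and 25305 in the B6 ES pool. The 3 neuronal markers with the largest differences were Nefl (2.77-fold lower), Stmn2 (2.66-fold) and Gap43 (2.36-fold). Of the 12 neuronal markers, 4 were at least 2-fold lower. Every skeletal muscle marker was lower too, with a median of -2.10 and summed signals of 32456 (EiPS) and 74303 (B6 ES). No marker of either list was at 0, but genes under the floor also had signals above 0.

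The receptor genes did not differ as a block. Their median log2 difference was -0.041, against 0.067 over all 10963 compared genes, and 23 of 44 (52.3%) were lower in the EiPS pool by any amount, against 43.8% of all compared genes. Beyond 2-fold, 7 of the 44 were lower and 3 were higher. The 7 lower genes are 15.9% of those compared, against 3.05% of all compared genes, and the 3 higher genes 6.82%, against 5.79%. With quantile normalization the split was 7 lower and 1 higher, where all genes gave 4.05% lower and 4.47% higher. With loess scaling it was again 7 lower and 1 higher, where all genes gave 3.72% and 4.83%. With equal medians it was 8 lower and 1 higher, where all genes gave 4.16% and 4.56%; equal medians also moved the median of all genes from 0.067 to -0.057.

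Among the 34 receptor genes above the floor on both arrays, 6 were at least 2-fold lower (17.6%, against 2.96% of all such genes) and 2 at least 2-fold higher (5.88%, against 4.9%). Most lower calls sat among the brighter probe sets. A gene whose brighter signal is under 2 times the floor of 25.8 cannot reach 2-fold in either direction, so the dimmer range had less room for calls. Of 18 receptor genes whose brighter signal was 100 or more, 6 were at least 2-fold lower and 1 higher, where all genes in that range gave 3.17% and 5.06%. Of 26 whose brighter signal was under 100, 1 was at least 2-fold lower and 2 higher, where all genes in that range gave 2.5% and 9.17%. The members were picked by name with earlier results of these arrays known, and members of a family are not independent, so these shares describe the 2 arrays.

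**Figure D1:**
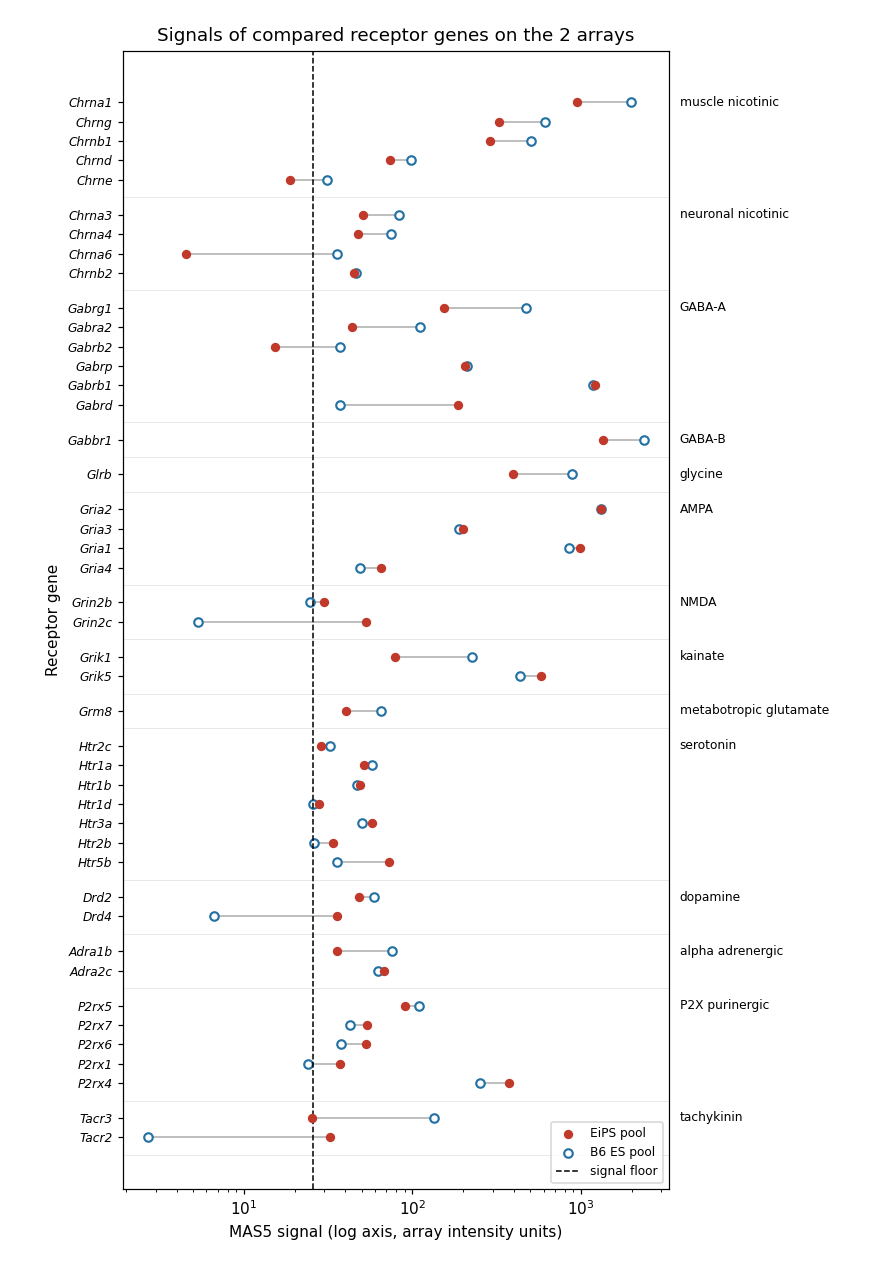
MAS5 signal (horizontal log axis) of each of the 44 compared receptor genes in the EiPS pool (filled red) and the B6 ES pool (open blue), 1 array each, grouped by receptor family; the dashed line is the floor of 25.8. The muscle nicotinic genes all have the EiPS point to the left, the AMPA genes have nearly coinciding points, and most serotonin receptor genes lie close to the floor; heights of different genes come from different probes and cannot be ranked against each other.

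**Figure D2:**
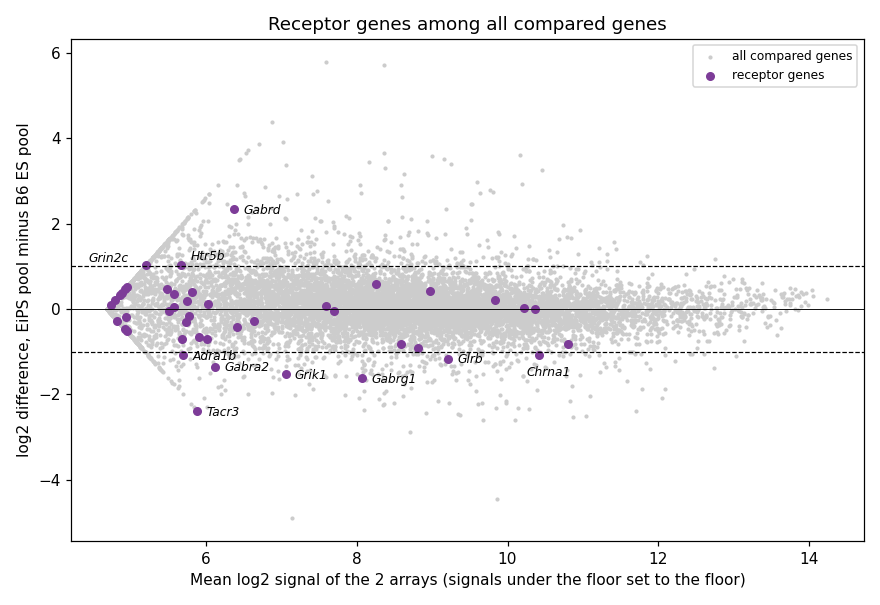
log2 difference (EiPS pool minus B6 ES pool, vertical) against the mean log2 signal of the 2 arrays for 10963 compared genes (grey) and the 44 compared receptor genes (purple); dashed lines mark 2-fold. The 10 named receptor genes lie past those lines, 7 below and 3 above, and the diagonal edges at the left are genes set to the floor on 1 array.

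The muscle nicotinic acetylcholine receptor is the channel that starts contraction at the neuromuscular junction, and all 5 of its subunit genes were lower in the EiPS pool. Chrna1, the ligand-binding alpha subunit (probe set 1418852_at), had a signal of 942 in the EiPS pool and 1985 in the B6 ES pool, 2.11-fold lower. Chrng, the gamma subunit of immature and denervated muscle (1449532_at), had 328 (EiPS) and 615 (B6 ES), 1.88-fold lower. Its second compared probe set had 109.98 (EiPS) and 280 (B6 ES) and was 2.55-fold lower, so the direction was shared although the size was not. Chrnb1, the beta subunit (1420682_at), had 290.35 in the EiPS pool and 508 in the B6 ES pool, 1.75-fold lower. Chrnd, the delta subunit (1420761_at), had 73.9 (EiPS) and 98.8 (B6 ES), 1.34-fold lower, a log2 difference of -0.42 that is close to the probe set SD. Chrne, the epsilon subunit that replaces gamma at mature junctions (1420560_at), was under the floor in the EiPS pool at 18.8 and just above it in the B6 ES pool at 31.1, at least 1.20-fold lower. By the brightest probe sets Chrna1 alone of the 5 reached 2-fold, and the family's median log2 difference was -0.81.

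The muscle receptor genes differed in the same direction as other muscle genes, whose part in the result was not tested. The skeletal muscle markers had a median of -2.10, led by Myh4, the myosin heavy chain of the fastest adult fibres, with 198 in the EiPS pool and 4324 in the B6 ES pool, 21.8-fold lower. Pygm, the muscle glycogen phosphorylase, was 6.10-fold lower and myoglobin (Mb) 6.02-fold lower. The 4 receptor subunits above the floor on both arrays had smaller differences than that median. They did not differ less than every marker: Acta1 (1.37-fold lower) and Mylpf (1.52-fold) differed less than Chrna1, Chrng and Chrnb1. The myogenic factors Myog and Myod1, named here after their values were seen, were 1.33-fold and 1.59-fold lower. Of the 10 compared genes that build or serve the neuromuscular junction, 8 were lower and 3 of them at least 2-fold, with a median of -0.28. These 3 were Etv5, an Ets factor of synaptic nuclei (2.48-fold lower), Musk, the kinase that organises receptor clusters (2.35-fold), and Ache, the enzyme that breaks down acetylcholine (2.27-fold). Rapsn, which anchors the receptor, was 1.16-fold lower (named after its value was seen).

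Nicotinic receptors of neurons, which serve ganglia and modulate release in the brain, were close to the floor. Of 9 genes, 4 were compared and all 4 were lower in the EiPS pool, none by 2-fold, with a median of -0.56. Chrna3, the alpha subunit of autonomic ganglia, had 50.9 in the EiPS pool and 82.9 in the B6 ES pool, 1.63-fold lower, but its other probe set differed by -0.062 on the log2 scale. Chrna4, which pairs with Chrnb2 in the commonest brain receptor, had 47.8 (EiPS) and 75.03 (B6 ES), 1.57-fold lower, and its other probe set differed by 0.012. Chrnb2 had 45.0 (EiPS) and 46.4 (B6 ES). Chrna6, a subunit of midbrain dopamine neurons, was under the floor in the EiPS pool at 4.54 and had 35.6 in the B6 ES pool, at least 1.38-fold lower, with its second probe set at least 1.55-fold lower. Chrna2, Chrna5, Chrna7, Chrnb3 and Chrnb4 had both signals under the floor. The muscarinic receptor genes Chrm1, Chrm3 and Chrm4, which encode G protein-coupled receptors for acetylcholine, could not be compared for the same reason.

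GABA-A receptors, the main inhibitory chloride channels of the brain, held extremes in both directions. Gabrg1, a gamma subunit (1460408_at), had 154 in the EiPS pool and 473 in the B6 ES pool, 3.07-fold lower. Its second probe set had 22.3 (EiPS, under the floor) and 66.2 (B6 ES), at least 2.56-fold lower, so both probe sets passed 2-fold. Gabra2, an alpha subunit found at many forebrain synapses (1421738_at), had 43.6 in the EiPS pool and 111 in the B6 ES pool, 2.55-fold lower.

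Gabrd, the delta subunit of receptors outside the synapse that carry tonic inhibition (1449980_a_at), went the other way, with 187 in the EiPS pool and 37.0 in the B6 ES pool, 5.05-fold higher by its only probe set. The B6 ES signal of Gabrd lies under the 98th percentile of the chemosensory receptors (49.2), and with the floor there its difference was at least 1.93 on the log2 scale. Gabrb1, a beta subunit, had nearly equal signals of 1211 (EiPS) and 1179 (B6 ES). Gabrp, the pi subunit of epithelia, had 206 in the EiPS pool and 211 in the B6 ES pool, with its other probe set 0.36 higher on the log2 scale. Gabrb2 was under the floor in the EiPS pool at 15.3 and had 37.0 in the B6 ES pool, at least 1.43-fold lower. The other 7 of 13 GABA-A genes, Gabra3, Gabra6, Gabre, Gabrg3, Gabrq, Gabrr1 and Gabrr2, were under the floor on both arrays by their brightest probe set, although a second probe set of Gabra6 had 3.73 in the EiPS pool and 32.6 in the B6 ES pool.

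Gabbr1, a subunit of the G protein-coupled GABA-B receptor, had a signal of 1348 in the EiPS pool and 2367 in the B6 ES pool by its brightest probe set (1455021_at), 1.76-fold lower. Its 2 other probe sets above the floor differed by -0.022 and 0.085 on the log2 scale, so the probe sets of this gene did not share the difference. Glrb, the beta subunit that ties glycine receptors to the synaptic scaffold (1422504_at), had 397 in the EiPS pool and 890.3 in the B6 ES pool, 2.24-fold lower. Gphn, which encodes gephyrin, the scaffold that Glrb and several GABA-A subunits bind, had 408 (EiPS) and 752 (B6 ES) and was 1.84-fold lower. The alpha subunits Glra1, Glra3 and Glra4, which bind glycine, were under the floor on both arrays.

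The AMPA receptor genes, which carry fast excitation through glutamate, had log2 differences of 0.0033 to 0.40 by their brightest probe sets. Gria2, the subunit that limits calcium entry, had 1315 in the EiPS pool and 1312 in the B6 ES pool by its brightest probe set (1421970_a_at). A second, dimmer probe set of Gria2 had 558 (EiPS) and 220.04 (B6 ES) and was 2.54-fold higher, so the value of this gene depends on the probe set. Gria1 had 982 in the EiPS pool and 848 in the B6 ES pool, 1.16-fold higher, with its other probe set at 0.16 on the log2 scale. Gria3 had 199 (EiPS) and 188 (B6 ES), and Gria4 had 64.8 (EiPS) and 49.01 (B6 ES). The median log2 difference of the 4 genes was 0.15. All 4 were higher by any amount as deposited, but Gria3 turned lower with quantile normalization and loess scaling, and Gria2 and Gria3 with equal medians, where the median was 0.021.

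The auxiliary and scaffold genes around these receptors were divided. Of 19 compared genes, 9 were lower and 10 higher, with a median of 0.0065 that turned to -0.036 with quantile normalization, -0.12 with equal medians, -0.020 with loess scaling and -0.046 with probe sets averaged. Apart from Gphn, the largest differences were in Cacng2 (stargazin), which carries AMPA receptors to the synapse, with 90.1 in the EiPS pool and 302 in the B6 ES pool, 3.35-fold lower, and its relative Cacng3, 3.18-fold lower. Other companions of AMPA receptors, here named after their values were seen, went both ways. Cacng8, a further relative of Cacng2, was under the floor in the EiPS pool at 6.36 and had 44.1 in the B6 ES pool, at least 1.71-fold lower. Cacng4 had 730 in the EiPS pool and 709 in the B6 ES pool, and Cnih2 had 698 (EiPS) and 655 (B6 ES). Pick1 and Grip1 were 1.14-fold and 1.37-fold higher.

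Kainate receptor genes, a further glutamate channel family, went both ways. Grik1 (1427676_a_at) had 78.6 in the EiPS pool and 226 in the B6 ES pool, 2.88-fold lower. Grik5, a subunit that works only beside other kainate subunits, had 579 (EiPS) and 434 (B6 ES), 1.33-fold higher. Grik2 and Grik3 were under the floor on both arrays. Among genes for NMDA receptor subunits, Grin2c, the subunit of mature cerebellar granule cells (1449245_at), had 53.0 in the EiPS pool and 5.32, under the floor, in the B6 ES pool, at least 2.05-fold higher. Grin2b, a subunit of the developing brain, had 30.0 (EiPS) and 24.7 (B6 ES), at least 1.16-fold higher (lower with quantile normalization), while Grin2a and Grin2d were under the floor. Grm8, a presynaptic metabotropic glutamate receptor, had 40.2 in the EiPS pool and 65.1 in the B6 ES pool, 1.62-fold lower.

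**Figure D3:**
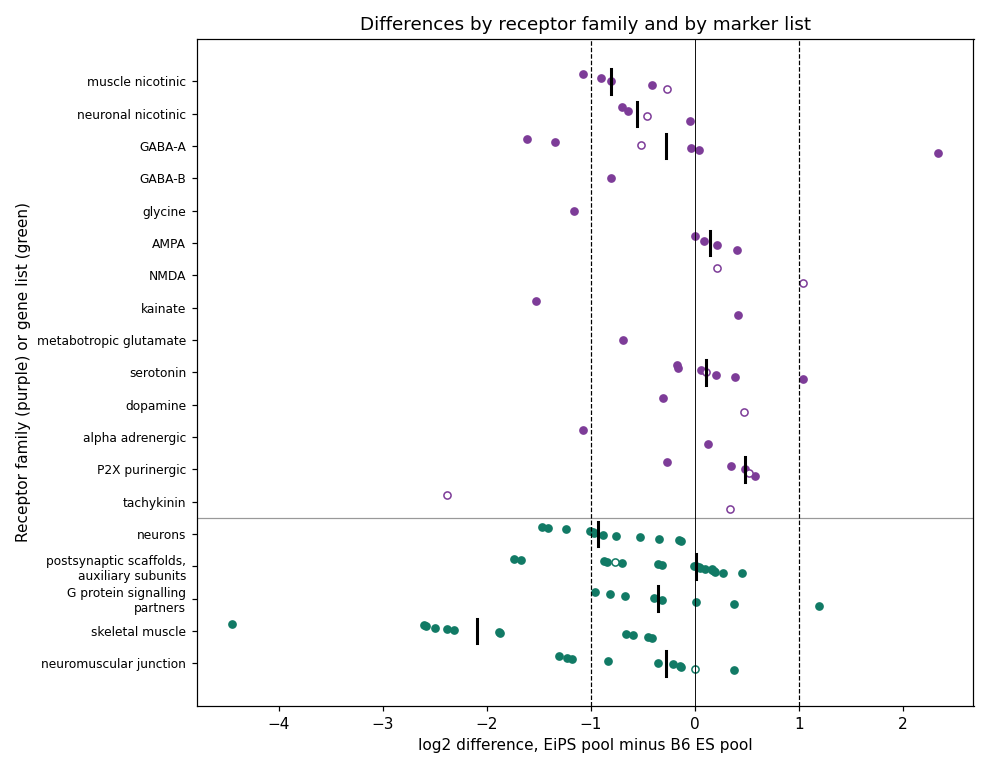
log2 difference (EiPS pool minus B6 ES pool) of each compared gene by receptor family (purple, above the line) and in 5 marker or partner lists (green); open circles are bounds with 1 array under the floor, black bars are medians where 3 or more genes were compared, and dashed lines mark 2-fold. Muscle nicotinic genes (median -0.81) and neuronal nicotinic genes (-0.56) lie left of 0, AMPA genes (0.15) beside it and P2X genes (0.48) mostly right of it, while neuronal markers (-0.93) and skeletal muscle markers (-2.10) lie left of 0 throughout.

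Serotonin receptor genes had signals near the floor. Of 13, 7 were compared and 6 (Htr1f, Htr3b, Htr4, Htr5a, Htr6 and Htr7) were under the floor on both arrays, and no signal in the family passed 73.0. Htr5b (1422196_at) had 73.0 in the EiPS pool and 35.5 in the B6 ES pool, 2.05-fold higher. Htr3a, which like Htr3b is a subunit of the ion channel among serotonin receptors, had 57.8 (EiPS) and 50.4 (B6 ES). Htr1a, the brain's inhibitory autoreceptor, had 51.8 (EiPS) and 57.95 (B6 ES), and its 2 probe sets differed in sign. Htr1b, Htr1d, Htr2b and Htr2c differed by -0.18 to 0.39 on the log2 scale. The family's median of 0.11 turned to -0.13 with quantile normalization, -0.096 with loess scaling and -0.015 with equal medians, so it has no settled direction.

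Of the monoamine receptors with other ligands, Drd2, the inhibitory dopamine receptor, had 48.0 in the EiPS pool and 59.5 in the B6 ES pool. Drd4 had 35.8 (EiPS) and 6.64 (B6 ES), at least 1.39-fold higher, and Drd3 was under the floor on both arrays. Adra1b, an adrenergic receptor of smooth muscle, liver and brain (1422183_a_at), had 35.7 in the EiPS pool and 75.4 in the B6 ES pool, 2.11-fold lower. Adra2c, which curbs noradrenaline release, had 68.2 (EiPS) and 62.8 (B6 ES), a difference that turned lower with each of the 3 other scalings. All 9 smooth muscle markers, 8 of them above the floor on both arrays, were lower in the EiPS pool as well, with a median of -1.31. Their summed signals were 11762 (EiPS) and 18686 (B6 ES). Cnn1 (4.25-fold lower), Myh11 (3.79-fold) and Des (2.54-fold) differed most, and Acta2 (1.19-fold lower) and Tagln (1.16-fold) least. Of these, Des is not restricted to smooth muscle. Other receptors of smooth muscle did not share that direction: P2rx1 (at least 1.43-fold) and Tacr2 (at least 1.26-fold) were higher in the EiPS pool. No list of liver genes was made. The part of the smooth muscle markers in the value of Adra1b was not tested. Of 8 compared G protein signalling partners, 5 were lower, none by 2-fold, and 3 higher, with a median of -0.36. The largest differences were in Ppp1r1b, the phosphatase regulator DARPP-32 (2.28-fold higher), the neuronal G protein subunit gene Gng3 (1.94-fold lower) and Rgs4 (1.77-fold lower).

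P2X receptor genes encode ATP-gated channels of immune cells, epithelia, muscle and sensory neurons. Of 5 compared, 4 were higher in the EiPS pool, by less than 2-fold, and 1 was lower. Of all compared genes, 43.8% were lower. The log2 differences of P2rx7 (0.35) and P2rx6 (0.48) were no larger than about the probe set SD of 0.48 for dim signals. P2rx4, a channel of macrophages and epithelia (1425525_a_at), had 375 in the EiPS pool and 251 in the B6 ES pool, 1.49-fold higher, but its second probe set had 161 (EiPS) and 200.5 (B6 ES), 1.25-fold lower. P2rx7, the channel that triggers interleukin release in macrophages, had 53.9 (EiPS) and 42.4 (B6 ES), 1.27-fold higher. P2rx6 was 1.39-fold higher and P2rx1, a channel of platelets and smooth muscle, at least 1.43-fold higher, while P2rx5 was 1.21-fold lower. P2rx3, the channel of pain-sensing neurons, was under the floor on both arrays. The 5 compared genes had a median of 0.48, and 0.20 with quantile normalization. Of the 8 macrophage markers, all above the floor on both arrays, 3 were higher and 5 lower, with a median of -0.10. Their summed signals were 4691 in the EiPS pool and 4511 in the B6 ES pool. The 3 with the largest differences were Cd68 (2.09-fold higher), Ptprc (1.34-fold higher) and Itgam (1.23-fold lower).

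Tacr3, the receptor for neurokinin B in the hypothalamus and other brain regions (1437029_at), had the largest lower value among the receptor genes with the floor used here. Its signal was 25.4 in the EiPS pool, just under the floor, and 135 in the B6 ES pool, at least 5.23-fold lower. Its second probe set was under the floor on both arrays, with 5.82 (EiPS) and 7.12 (B6 ES), so the difference rests on 1 probe set. Tacr2, the neurokinin A receptor of gut and airway smooth muscle, had 32.7 in the EiPS pool and 2.70 in the B6 ES pool, at least 1.26-fold higher. Tacr1, the substance P receptor, was under the floor on both arrays.

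Most receptor genes have a single probe set, so agreement could be read for few of them. Of 16 genes with several probe sets, 12 had 2 or more that could be compared, and in 5 of these (Chrna4, Gabbr1, Gabrp, Htr1a and P2rx4) the probe sets differed in sign. Of the 10 genes past 2-fold, Gabrg1 alone had a second compared probe set, and it went the same way.

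**Figure D4:**
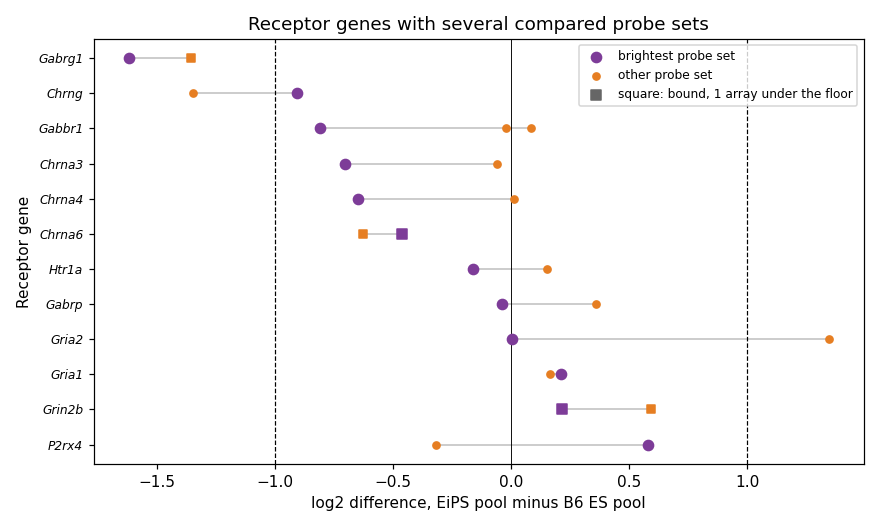
log2 difference (EiPS pool minus B6 ES pool) of every compared probe set for the 12 receptor genes with 2 or more; the brightest is purple, others are orange, and squares are bounds with 1 array under the floor. Gabrg1, Chrng, Chrna3 and Chrna6 have all points left of 0, while Gabbr1 spans -0.81 to 0.085 and Gria2 spans 0.0033 to 1.34.

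The 10 calls differed in how firmly they held when the processing was changed. Chrna1, Gabrg1 and Glrb were at least 2-fold lower under all 10 alternatives tried, and Grik1 under all 9 that could be run for it. Gabra2 and Tacr3 passed 2-fold under 8 of 10, Gabrd under 8 of 9, Adra1b under 6 of 8, and Htr5b and Grin2c under 4 of 9 each. None of these 10 genes changed sign under any alternative.

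**Figure D5:**
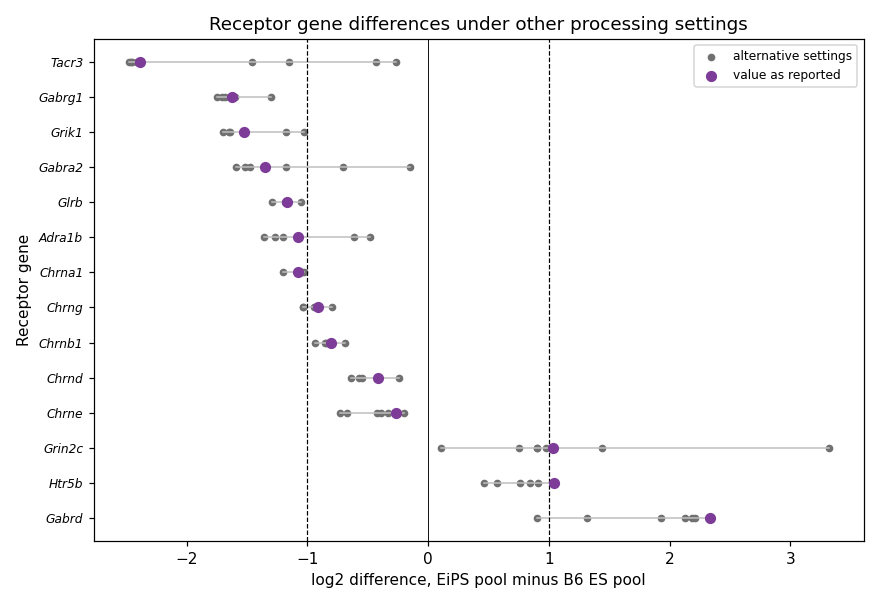
log2 difference (EiPS pool minus B6 ES pool) of the 10 receptor genes past 2-fold and the other muscle nicotinic genes, as reported (purple) and under each alternative of floor, scaling and probe set choice (grey); dashed lines mark 2-fold. Chrna1 stays between -1.20 and -1.03 and Gabrg1 between -1.75 and -1.30, while Tacr3 ranges from -2.48 to -0.26 and Grin2c from 0.11 to 3.32.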

How the data were processed

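Total RNA of 2 tumours per group was pooled, and biotin-labelled cRNA made from 5 µg was hybridised, per the labels' protocols. Each deposited value is the intensity of a probe set, not log-transformed, which the authors made with Affymetrix Expression Console and MAS5, per the submitters' processing notes, which give no version. The 2% trimmed mean was 500.2 on both arrays, so they had been scaled to a common level. The number of arrays, 1 per group, limits the precision.

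Of 22690 probe sets, 64 were controls and 20393 had 1 gene symbol, of which 20364 were updated by Entrez identifier (RefSeq, GRCm38.p6, names only). Promoter windows were found for 58 of the 75 receptor genes. A gene took the value of its brightest probe set by mean log2 signal. Of 12394 genes, 1431 had both signals under the floor and were left out. Differences are log2 EiPS minus log2 B6 ES. Named genes were all members past 2-fold, the muscle nicotinic genes, the brightest compared member of each family, and the 3 compared genes with the largest difference in each other list; further members were added to account for all. The members and lists were chosen with earlier results of these data known. Alternatives were other floors, log2(signal + 64), quantile, median and loess (span 0.4) scaling, averaging the probe sets, and dropping those marked as matching several transcripts. The recovery of planted changes was tested on simulated data, for genes well above the floor only. Dim genes and bounds, which make up many of the receptor values, were not covered by it. Python 3.11.15, pandas 2.3.3 and statsmodels 0.14.6 were used.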

Additional observations from a re-analysis of the deposited data

How the results depend on the processing

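Which receptor genes can be compared, and how many pass 2-fold, depended on the floor. At least 2-fold higher were 1 gene with a floor at the chemosensory receptors' 98th percentile (4.56% of all genes), 0 of 18 with a floor of 100 (3.39% of all genes), 13 of 75 with no floor (17.3%, against 10.1% of all genes) and 1 each with log2(signal + 64) (1.98% of all genes), quantile normalization, equal medians and loess scaling. At least 2-fold lower were 4 of 18 genes with a floor of 100 (22.2%, against 2.71% of all genes) and 17 of 75 with no floor (22.7%, against 5.81%). The median over receptor genes was -0.22 with the 98th percentile floor, -0.14 with a floor of 100, -0.18 with quantile normalization, -0.17 with equal medians and -0.14 with loess scaling. The GABA-A median was -0.038 with either higher floor, -1.27 with no floor and -0.52 without shared probe sets. The neuronal nicotinic median was -0.045 with no floor and -0.019 with log2(signal + 64), both over 9 genes. The P2X median was 0.12 with the 98th percentile floor, 0.22 with a floor of 100, 0.17 with log2(signal + 64), 0.20 with quantile normalization and 0.24 with probe sets averaged. The serotonin median was -0.13 with quantile normalization and -0.096 with loess scaling. In families of 1 or 2 compared genes, the median changed sign for tachykinin receptors (1.26 with no floor, 0.045 with log2(signal + 64), 0.037 with probe sets averaged), kainate receptors (0.0081 with log2(signal + 64), 0.42 without shared probe sets, where only Grik5 is left above the floor), alpha adrenergic receptors (0.12 without shared probe sets, where only Adra2c is left) and dopamine receptors. The dopamine median of 0.081 turned to -0.28 with the 98th percentile floor, where only Drd2 is left, -0.017 with no floor, -0.00038 with log2(signal + 64), -0.14 with quantile normalization, -0.013 with equal medians, -0.081 with loess scaling and -0.15 with probe sets averaged. Apart from the changes that follow from fewer or more genes being compared, the cause was not tested. Under the alternatives run, the muscle nicotinic median lay between -0.93 and -0.69 and the AMPA median between 0.021 and 0.31. No paired analysis was possible because each group has 1 array.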

Other observations

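Lists of other tissues gave the values around these receptor genes. Of 9 measured glial genes 6 were higher and 3 lower in the EiPS pool (median log2 difference 0.11, which turned to -0.055 with quantile normalization, -0.018 with equal medians and -0.0060 with loess scaling). Mobp, which encodes a protein of myelin, was 7.58-fold higher. Olig1 was 2.62-fold lower and Sox10, also of the oligodendrocyte lineage, 2.36-fold lower. Of 7 compared endocrine genes 4 were higher and 3 lower, with a median of 0.019 that turned to -0.22, -0.11 and -0.13 under those 3 scalings, -0.67 without shared probe sets and -0.33 with a floor of 100; the hormone gene Sst was 2.36-fold lower, the prohormone convertase gene Pcsk1 at least 2.17-fold lower and the insulin gene Ins2 at least 2.34-fold higher.

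All 6 compared adipocyte genes had a higher signal in the EiPS pool (median 1.76): Adipoq (adiponectin) was at least 11.3-fold, Fabp4 7.90-fold and Retn (resistin) at least 5.68-fold higher. That median was 0.79 without shared probe sets, 1.01 with a floor of 100, 0.97 with log2(signal + 64) and 2.98 with no floor. All 5 compared genes of the cornified epidermis were higher, with a median of 2.06: Asprv1 was 4.21-fold, Lce1f at least 4.20-fold and Lor (loricrin) 4.18-fold higher. The epidermal median fell with the processing, to 1.14 with the 98th percentile floor, 0.35 with a floor of 100, 0.36 with log2(signal + 64) and 0.45 with probe sets averaged. Of 6 endothelial genes 5 were higher, with a median of 0.43 (0.18 with probe sets averaged): Vwf was 2.01-fold and Pecam1 1.52-fold higher, and Tek 1.46-fold lower.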
